A study of Caenorhabditis elegans with 2 samples.

Results

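The 8 genes of the worm DREAM complex, lin-35, efl-1, dpl-1, lin-9, lin-37, lin-52, lin-53 and lin-54, were taken by name from 19973 protein-coding genes, and the peaks of the chromatin protein EKL-4 at each of them were read out. All 8 were found in the annotation. A gene was counted as having a peak where a peak summit, the authors' point of highest signal within a peak, was inside the gene or at most 1000 bp from the start (5' end) of a transcript. The data were chromatin immunoprecipitation followed by sequencing (ChIP-seq) of whole Caenorhabditis elegans in 2 biological replicates of 1 group. Both replicates were young adults of strain RW12207, aged 65 hours and synchronised by starvation as L1 larvae after bleaching, and both carried the CRISPR insertion st12207[ekl-4::TY1::EGFP::3xFLAG]. The sample description gives an anti-GFP antibody, while the antibody field of the labels names ekl-4. There was no second condition, and whole animals mix all tissues, so binding in a few cells and weak binding in many cannot be told apart.

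DREAM is a repressor complex found from worms to humans. It joins a pocket protein of the retinoblastoma family, an E2F-DP pair that binds DNA, and the MuvB core, whose LIN-54 subunit binds a second kind of DNA element. In mammals it silences cell cycle genes in resting cells. In the worm its genes belong to the synMuv B class, named for an effect on the vulva, and they keep germline genes off in the body. EKL-4, the protein mapped here, is of the DMAP1 family, whose members sit in complexes that acetylate histones or exchange H2A.Z.

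EKL-4 summits stood at 6 of the 8 DREAM genes: the pocket protein gene lin-35, the E2F gene efl-1, and the MuvB genes lin-9, lin-52, lin-53 and lin-54. The DP gene dpl-1 and the MuvB gene lin-37 had none. The count was 75.0% of the members in the conservative list, built by the authors from how well the ranking of a peak repeated between replicates, beside 10.6% of all protein-coding genes (2113 of 19973). The same 6 genes, with 7 peaks in all, made up the count in each of the other 3 thresholded lists. The larger list is no separate repeat. Like the conservative list it came from the alignments of both replicates, and the 7 peaks had the same positions and signals in both lists. All protein-coding genes reached 11.9% in the larger list, 6.99% in that of replicate 1 and 8.04% in that of replicate 2. Each of the 6 genes kept a conservative summit when the window was narrowed to 500 bp of a 5' end, where 6.42% of all protein-coding genes had one.

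The strongest was at lin-53, with a signal of 473 (rank 32 of 2482 conservative peaks), and it was followed by lin-54 with 436 (rank 43) and lin-9 with 353 (rank 86). The summit at lin-35 had a signal of 223 (rank 234) and that at efl-1 169 (rank 463). At lin-52 the signal was 88.9 (rank 1761), below the list's median of 108. The signal is the authors' own strength of a peak, on a scale that is not stated, so ranks are within a list. Over the 6 genes the median signal of the strongest summit was 288, beside 119 over all 2113 genes that had a summit. The offset of these summits from the nearest 5' end of the member ran from -363 to 39 bp (negative is upstream), with a median of -185.5 bp, beside -113 bp over the 2113 genes. Upstream summits were found at 5 of the 6 members, beside 59.9% of genes with a summit.

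**Figure D1:**
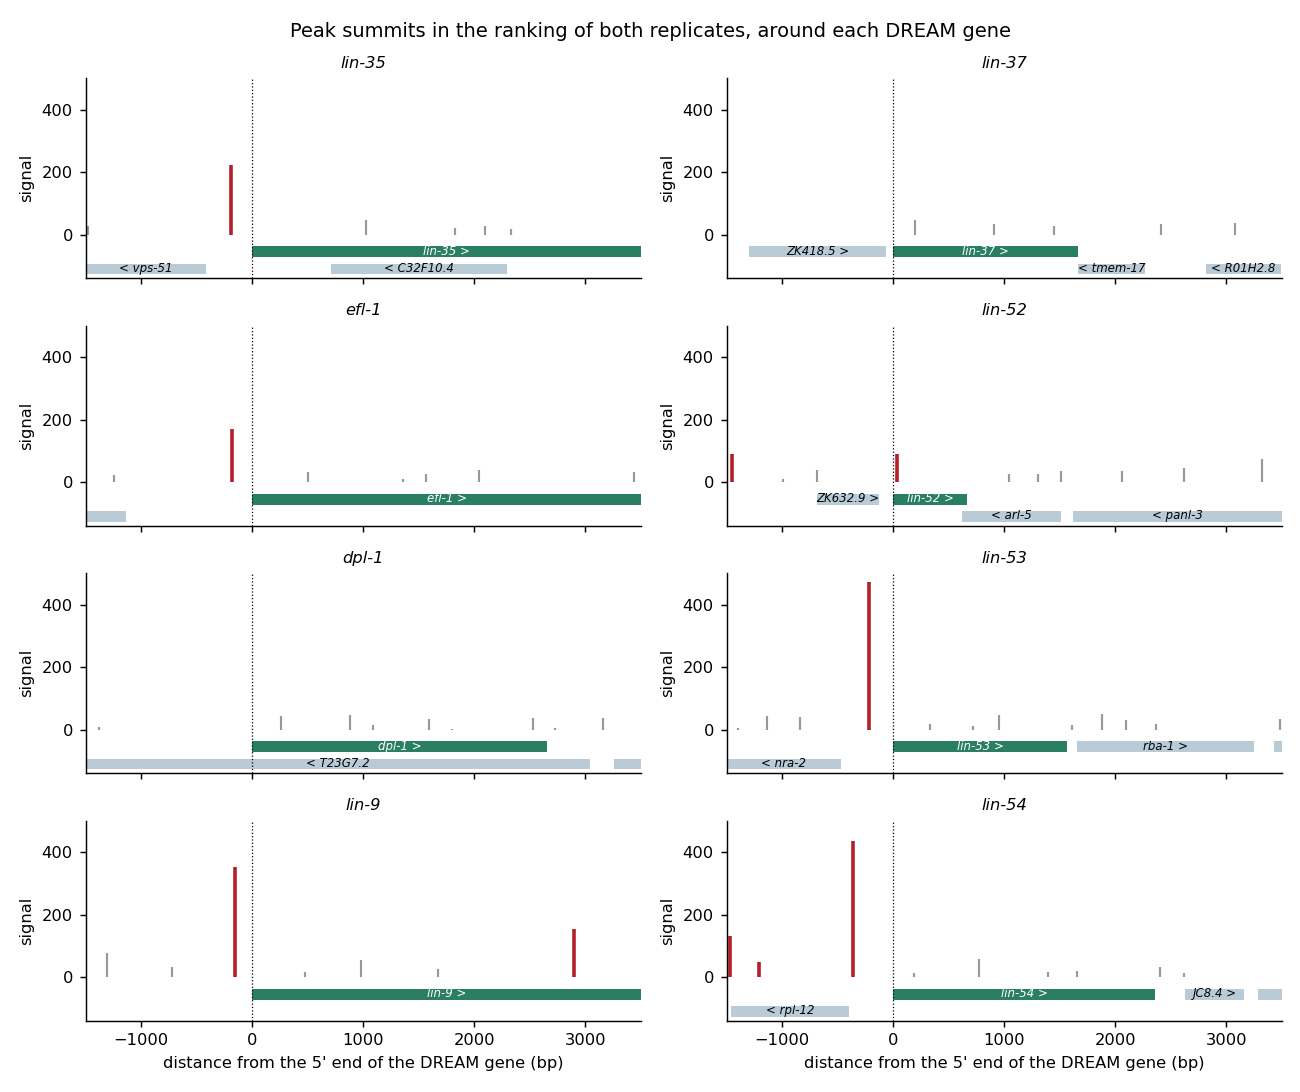
Peak summits around the 8 DREAM genes, in the ranking of peaks from both replicates. The horizontal axis is the distance in bp from the gene's 5' end with the gene running to the right, the height of a line is the authors' signal, red lines are peaks that are also in the conservative list, grey lines are peaks of the ranking alone, the green box is the member and blue boxes are other protein-coding genes. The tallest line stands just before the gene at lin-35, efl-1, lin-9, lin-53 and lin-54. At lin-52 a red line falls just inside the gene and another of like height stands at -1449 bp. Further red lines stand at 2895 bp in lin-9 and at -1211 and -1468 bp from lin-54. The genes dpl-1 and lin-37 have grey lines only.

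The windows below are shown because they hold, or lack, the letters that the DNA-binding subunits of DREAM are known for. Each was read 5' to 3' along the strand of the member gene from the RefSeq WBcel235 genome, the build that ce11 names, and centred on the conservative summit. Capitals mark E2F-type letters (TTGGCGC or TTGCCGC or TTCGCGC or TTCCCGC) and CHR-type letters (TTTGAA or TTCGAA), each on either strand, so that TTCAAA is TTTGAA and GCGCGAA is TTCGCGC of the other strand. The efl-1 window is chrV:16965757-16965957 on the minus strand and the lin-9 window is chrIII:8904181-8904381 on the minus strand. The other 2 windows are shortened. For lin-54, chrIV:13240652-13240781 on the plus strand is printed, which leaves out the part inside the neighbouring gene rpl-12. For lin-52, chrIII:9824611-9824743 on the minus strand is printed, which leaves out the first bases of the gene and the part of the window upstream of it.
efl-1: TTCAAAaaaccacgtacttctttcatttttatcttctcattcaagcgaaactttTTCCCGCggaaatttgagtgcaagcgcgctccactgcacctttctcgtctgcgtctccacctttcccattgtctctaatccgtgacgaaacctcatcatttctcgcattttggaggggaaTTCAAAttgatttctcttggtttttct
lin-9: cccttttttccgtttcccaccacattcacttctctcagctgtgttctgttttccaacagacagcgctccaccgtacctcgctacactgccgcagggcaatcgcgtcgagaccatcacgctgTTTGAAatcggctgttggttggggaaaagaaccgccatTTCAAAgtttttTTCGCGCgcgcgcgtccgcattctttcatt
lin-54: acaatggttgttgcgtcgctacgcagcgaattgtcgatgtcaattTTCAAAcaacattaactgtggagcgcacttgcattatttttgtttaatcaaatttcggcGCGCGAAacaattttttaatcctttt
lin-52: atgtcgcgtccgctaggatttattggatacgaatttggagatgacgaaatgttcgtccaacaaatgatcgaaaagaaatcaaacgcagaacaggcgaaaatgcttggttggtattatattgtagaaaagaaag

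E2F-type letters were present in the 201 bp windows of 4 of the 6 members, efl-1, lin-9, lin-53 and lin-54, beside 16.4% of the 2482 conservative summit windows and 6.31% of the windows of the same length just upstream of all protein-coding 5' ends. In lin-54 there were 2 such sites, of which that at -56 bp from the summit lies in the stretch left out above. CHR-type letters were present in the same 4 members, beside 42.5% of summit windows and 56.2% of windows upstream of 5' ends. Neither kind of letters occurred in the windows of lin-35 and lin-52. Within 50 bp of the summit (101 bp windows) E2F-type letters remained in 1 member, efl-1, beside 10.4% of summit windows, and CHR-type letters in 3 members, beside 21.4%. The E2F-type letters began at -46 bp from the summit in efl-1, 71 bp in lin-9, 72 bp in lin-53, and -56 and 75 bp in lin-54. The GC content of the members' windows ran from 34.8% in lin-52 to 52.2% in lin-9. The median was 42.8% over all summit windows and 32.8% over the windows upstream of 5' ends. The share of windows with E2F-type letters at like GC content was not computed. A match of letters is a description of these windows and was not tested as a binding site.

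The pocket protein gene lin-35 (WBGene00003020), which encodes the single retinoblastoma family protein of the worm, lies on the plus strand of chromosome I at 5807709 to 5815637. Its conservative peak covered 5807340 to 5807699, with the summit at 5807520, between genes at -189 bp. The signal was 89.1 in replicate 1 (rank 316 of 1495) and 127 in replicate 2 (rank 248 of 1846). The summits of the replicates lay 10 bp apart. The gene is 7929 bp long and had 12 peaks in the ranking of both replicates. Its next strongest, with a signal of 67.9 and a score of 435, was in 3' UTR sequence, 7869 bp from the start. The gene hmg-3 overlaps lin-35, and the label does not tell whose 3' UTR this is. In the ranking that goes with the larger list the score of this peak was 769. It did not enter a thresholded list, in which the authors' score was never below 830.

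Of the E2F-DP pair, the E2F gene had a summit and the DP gene had none. The gene efl-1 (WBGene00001161; chromosome V, 16958590 to 16965675, minus strand) had its conservative peak at 16965677 to 16966036, with the summit at 16965857, at -182 bp. Its signal was 86.6 in replicate 1 (rank 346) and 80.1 in replicate 2 (rank 749), with summits 52 bp apart. Among the 6 genes it alone had the lower deposited signal in replicate 2, on a scale that may differ between the lists. By rank in percent of the list, the strongest peaks of lin-9 (5.15% and 5.90%) and lin-52 (79.3% and 87.4%) also stood lower in replicate 2. Those of lin-35, lin-53 and lin-54 stood higher.

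At dpl-1 (WBGene00001061; chromosome II, 9169910 to 9172565, plus strand), whose product is the DP partner that E2F proteins need to bind DNA well, the rankings held peaks below the authors' threshold. The strongest of replicate 1 reached a signal of 18.0 (score 26, 285 bp inside the gene), and the strongest of replicate 2 reached 28.8 (score 186, 259 bp inside). In the ranking of both replicates the strongest had a signal of 46.9, a score of 253 and rank 12726 of 83980, and lay in an intron 882 bp from the start. The nearest conservative summit was 39308 bp from the gene. The whole of dpl-1 lies within T23G7.2, a gene on the other strand, named here after its values were seen. Within 500 bp of its 5' ends the strongest ranked peak of T23G7.2 reached 8.05 in replicate 1, 19.8 in replicate 2 and 36.0 in the ranking of both replicates.

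The MuvB core gene lin-9 (WBGene00002998; chromosome III, 8900237 to 8904131, minus strand) had a pair of conservative peaks, more than any other member. The stronger covered 8904182 to 8904380 with the summit at 8904281, at -150 bp, and its signal was 172 in replicate 1 (rank 77) and 188 in replicate 2 (rank 109). It was the 1 summit of the 6 with no other protein-coding 5' end within 1000 bp.

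The other lin-9 peak lay in an intron, 2895 bp from the start, at 8901235 to 8901324, with a signal of 154 (rank 576). Its summit, at 8901236, was at the edge of a peak 90 bp wide. The signal there was 52.3 in replicate 1 (rank 1018) and 105 in replicate 2 (rank 380). Of the 31-base words in the 201 bp around that summit, 36.3% occurred more than once in the genome, beside 0% in the windows of the strongest summits of the 6 genes. Of all 2482 conservative windows, 21.2% held 10% or more such words. Whether reads of other copies took part in this peak was not tested. The window is printed because it holds an inverted repeat, 15-base arms with 103 bases between them, in capitals, from chrIII:8901136-8901336 on the minus strand of WBcel235.
lin-9 intron: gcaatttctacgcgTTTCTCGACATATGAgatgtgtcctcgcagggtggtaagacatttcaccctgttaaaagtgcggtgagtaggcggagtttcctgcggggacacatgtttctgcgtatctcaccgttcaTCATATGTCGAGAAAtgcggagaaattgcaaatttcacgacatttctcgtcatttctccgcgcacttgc

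The small MuvB gene lin-52 (WBGene00003035; chromosome III, 9824083 to 9824750, minus strand), whose product links the pocket protein to the core, had the weakest of the 6 strongest summits and the single one inside its gene. The peak covered 9824531 to 9824890, with the summit at 9824711 in the first coding exon, 39 bp from the start. Its signal was 47.3 in replicate 1 (rank 1186) and 53.6 in replicate 2 (rank 1614), where its score of 992 fell short of the maximum of 1000. The strongest thresholded peak of each of the 6 genes held that maximum in every other case. A separate conservative summit of like signal, 89.1, lay at -1449 bp, outside the window used here, and was nearest to the start of ZK632.9.

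In contrast, lin-37 (WBGene00003022; chromosome III, 7070890 to 7072552, minus strand), another MuvB core gene, had ranked peaks alone. The strongest reached 26.9 in replicate 1 (score 57) and 32.2 in replicate 2 (score 76). In the ranking of both replicates this peak had a signal of 47.9, a score of 477 and rank 12005, and lay in a coding exon 200 bp from the start. The gene upstream, ZK418.5, lies 60 bp away on the same strand and was looked up after the result at lin-37 was seen. Within 500 bp of its own 5' ends it had no peak in the ranking of both replicates or in that of replicate 2, and 1 with a signal of 15.0 in replicate 1. The nearest conservative summit to lin-37 was 29423 bp away.

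The gene lin-54 (WBGene00003037; chromosome IV, 13241044 to 13243401, plus strand) encodes the DNA-binding subunit of the MuvB core. Its conservative peak covered 13240576 to 13240802 with the summit at 13240681, at -363 bp from the nearest of its 5' ends, the farthest upstream of the 6. The signal was 194 in replicate 1 (rank 53) and 242 in replicate 2 (rank 56), with summits 13 bp apart. The start of rpl-12, for a large ribosomal subunit protein, lay closer, with the summit at -30 bp from it, so that the summit was nearer to rpl-12 than to lin-54. Beyond the window, at -1211 and -1468 bp from lin-54, there were 2 further conservative summits with signals of 49.1 and 133. Neither was nearest to lin-54. The weaker lay 47 bp downstream of a 5' end of rpl-12, and the stronger at -162 bp from the start of tag-115.

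The strongest summit of the group belonged to lin-53 (WBGene00003036; chromosome I, 9618196 to 9619760, minus strand), which encodes a histone-binding protein of the RbAp46/48 family that is also part of other chromatin complexes. The peak covered 9619875 to 9620081, with the summit at 9619975, at -215 bp. Its signal was 208 in replicate 1 (rank 37) and 264 in replicate 2 (rank 45), and the summits lay 10 bp apart. The peaks of lin-53, lin-54 and lin-9, with the 3 highest signals of the group, were 207, 227 and 199 bp wide, while the peaks of lin-35, efl-1 and lin-52 had the 360 bp that 89.0% of conservative peaks had. Of all conservative peaks 10.6% were narrower than 360 bp.

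Every one of the 6 strongest summits had a thresholded summit within 200 bp in both replicates, beside 39.5% of all conservative summits (981 of 2482). That share covers summits of any strength, while 5 of the 6 members' summits were at or above the list's median signal. A share at like signal was not computed. By signal the 6 genes fell in the same order in replicate 1, in replicate 2 and in the conservative list, lin-53, lin-54, lin-9, lin-35, efl-1 and lin-52. The ratio of the signal in replicate 2 to that in replicate 1 ran from 0.924 at efl-1 to 1.43 at lin-35, with 1.09 at lin-9, 1.13 at lin-52, 1.25 at lin-54 and 1.27 at lin-53. Over the 981 summits found in both replicates its median was 1.26, with quartiles of 1.06 and 1.53, so efl-1 lay below that middle range and the other 5 within it. As there was 1 group of 2 replicates, differences between the members' signals were not tested.

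**Figure D2:**
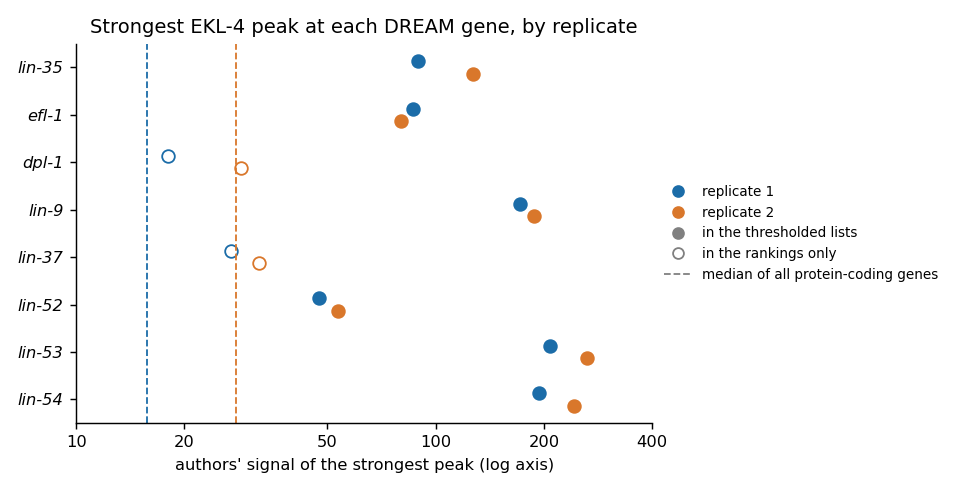
The authors' signal of the strongest ranked peak at each of the 8 DREAM genes, on a log axis, with replicate 1 in blue and replicate 2 in orange. Filled points are peaks that are also in the replicate's thresholded list, open points are peaks of its ranking alone, and the dashed lines mark the medians over all protein-coding genes, 15.7 in replicate 1 and 27.9 in replicate 2. Filled points run from 47.3 to 264, and the open points of dpl-1 and lin-37 lie between 18.0 and 32.2.

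The rankings, which list far more peaks than pass the threshold, gave a value for all 8 genes. A ranked peak is common, since 66.6% of protein-coding genes had one in replicate 1 and 80.6% in replicate 2. So the strongest ranked peak of each member was set among those of all protein-coding genes, with genes without a peak placed lowest. At lin-53, 46 genes were higher in replicate 1 and 36 in replicate 2. At lin-54 it was 73 and 48 genes, and at lin-9 98 and 110. The share of genes lower than lin-35 was 98.1% in replicate 1 and 98.6% in replicate 2, than efl-1 97.9% and 96.2%, and than lin-52 93.2% and 90.3%. The remaining pair lay nearer the middle: 57.3% of genes were lower than dpl-1 in replicate 1 and 52.6% in replicate 2, and 80.0% and 61.4% were lower than lin-37. A low value in these lists can be weak binding or background, and no test tells these apart here.

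**Figure D3:**
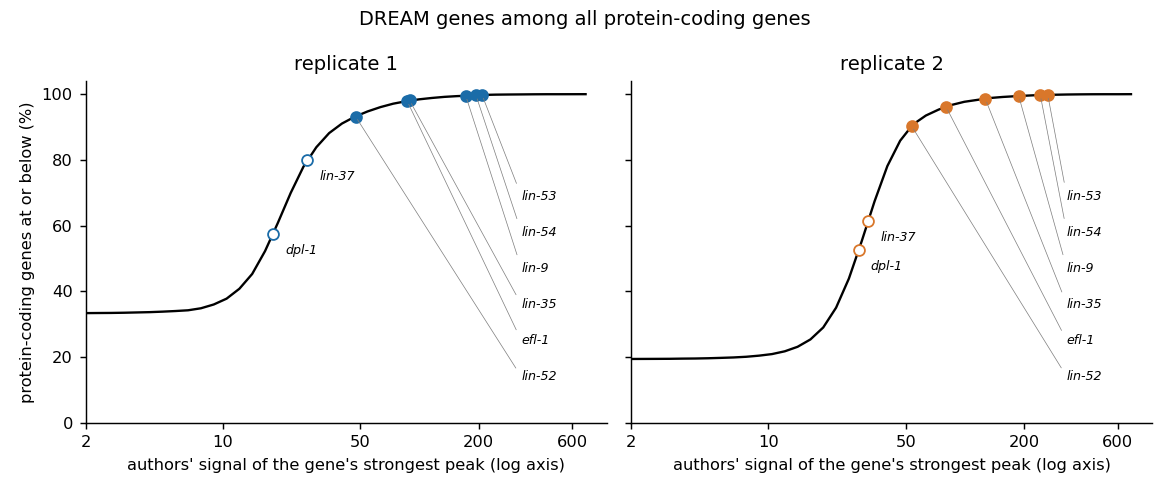
The share of the 19973 protein-coding genes, in percent, whose strongest ranked peak is at or below a given authors' signal (log axis), in replicate 1 on the left and in replicate 2 on the right. Points place the 8 DREAM genes on the curve, filled where the peak is in the thresholded list and open where it is in the ranking alone. In both replicates 6 genes lie on the flat top of the curve, from 90.3% upward, and dpl-1 and lin-37 lie on its steep part.

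A summit between neighbouring genes cannot be given to either of them, and 5 of the 6 members shared theirs: another protein-coding gene had a 5' end within 1000 bp of the strongest summit. Of all genes with a conservative summit 44.0% did so. At lin-35 the neighbour was vps-51, for a subunit of a vesicle tethering complex, and the summit lay at -229 bp from its start. At lin-53 it was nra-2, for a nicalin-like protein of the endoplasmic reticulum, with the summit at -252 bp from its start. These neighbours and rpl-12 run in the opposite direction to the member, so each of these 3 summits lies between a pair of diverging genes. The F-box family gene fbxa-90, from which the efl-1 summit lay at -957 bp, also diverges from its member. At lin-52 the neighbour was ZK632.9 on the same strand, with the summit 721 bp downstream of its start and nearer to lin-52. With a distance of 500 bp, 3 of the 6 members shared their summit, beside 30.5% of all genes with one.

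Genes that act with DREAM or near it were read by the same rule, and no difference between lists was tested. Of 13 other synMuv B and NuRD genes 6 had a conservative summit (46.2%, median signal 107). They were led by ubc-9, for the enzyme that attaches SUMO (signal 205, at -249 bp), smo-1, for SUMO itself (140, at -485 bp), and lin-13, for a zinc finger protein (116, at -874 bp), while lin-15B and lin-61 had none. Thresholded summits were found in both replicates at ubc-9, with signals of 97.9 and 97.8, and at smo-1, with 62.8 and 66.5, but in neither replicate's list at lin-13.

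Of 11 RB and E2F regulators 2 had a summit (18.2%), with cyclin D (cyd-1) and its kinase cdk-4 among those without one. The 2 were cye-1, for cyclin E, with a signal of 134 inside the gene, and lin-23, for an F-box protein of an SCF ubiquitin ligase, with 113 at -963 bp. Within 500 bp of a 5' end 0 of the 11 had a summit, beside the 6.42% of all protein-coding genes given above. Among 19 cell cycle and replication genes, which include the kind of gene that DREAM is known to repress, 5 had a summit (26.3%). The strongest was at pcn-1, for the replication clamp PCNA, with a signal of 438 at -238 bp, 235 in replicate 1 and 200 in replicate 2. It was followed by mcm-4, for a subunit of the replicative helicase (153, at 350 bp), and cdc-6, for a replication licensing factor (129, at a summit nearer to acin-1), while cyb-3 and plk-1 had none in the conservative list. The list of replicate 1 did hold a summit at cyb-3, for a cyclin B, with a signal of 38.6, and that of replicate 2 did not. The same held for mcm-2, which had a signal of 102 in replicate 1's list and no summit in the conservative list. Each replicate's own list held a summit at plk-1, for a mitotic kinase, with a signal of 69.7 in replicate 1's list and 53.9 in that of replicate 2. Of 7 germline P granule genes 2 had a summit (28.6%), glh-1 with a signal of 96.3 and pgl-1 with 36.0, and pgl-3 and glh-2 had none. The pgl-1 summit (rank 2345) lay 2650 bp from the start, and neither replicate's list held a summit at that gene. At glh-1 the signal was 58.3 in replicate 1 and 39.1 in replicate 2. The share of all protein-coding genes to set beside these lists is the 10.6% given above. The tagged gene ekl-4 itself had a summit at -147 bp with a signal of 234 (rank 214), 102 in replicate 1 and 139 in replicate 2.

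**Figure D4:**
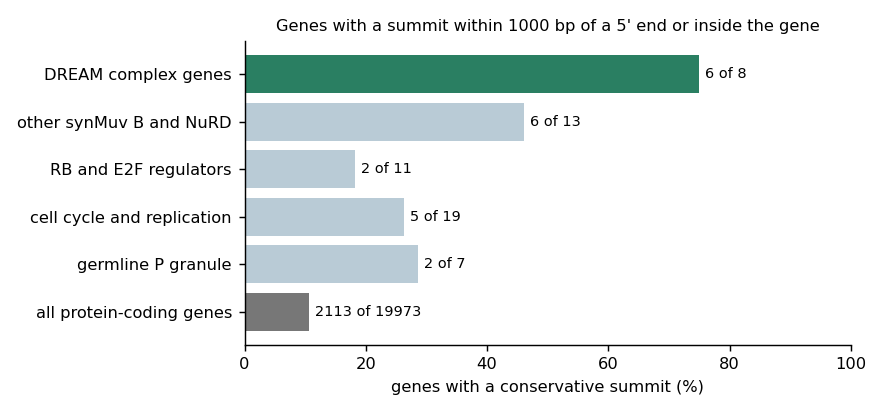
Genes with a conservative summit within 1000 bp of a 5' end or inside the gene, in percent of each list, with the counts beside the bars. The DREAM genes (green) stand at 75.0%, the 4 other lists (blue) between 18.2% and 46.2%, and all protein-coding genes (grey) at 10.6%.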

How the data were processed

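Peaks on ce11 came from ChIP and control alignments and were ordered by the irreproducible discovery rate (IDR), per the accompanying text files. Which aligner and caller were used is not given in the sources used here. An additional, undescribed input went into the thresholded lists. There were 4 ranked and 4 thresholded lists, 1 of each kind per replicate. The deposited signal (peak strength), the deposited score (up to 1000) and the deposited −log10 of the q-value were used as they stand, the last in 1 alternative. Each ranking holds 8 further columns that were not used. The depth of sequencing is unknown, and the controls were not analysed here.

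The conservative list held 2482 peaks, the larger 2847, replicate 1 1495 and replicate 2 1846. Genes came from Ensembl 115 (WBcel235). Positions are 1-based. One summit may be assigned to several genes. The members, lists and rules were chosen with earlier results of these data known. Named genes are the members, ekl-4, protein-coding genes with a 5' end within 1000 bp of a member's summit, and per other list the 3 strongest genes and up to 2 without a summit. The gene mcm-2 is named besides these, after its values were seen. Other neighbours are named where they overlap or adjoin a gene or are nearest to a summit. The counting was tested on simulated data. Python 3.11.15, numpy 2.4.6, pandas 2.3.3 and matplotlib 3.10.9 were used.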

Additional observations from a re-analysis of the deposited data

How the results depend on the processing

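Of 58 alternatives to 12 results, 46 stayed within 1.5 times the reported count or within the spread between replicates. Some of the 46 could not have left that range. A wider window, any overlap of the peak or a looser match between replicates can only keep or add members. All 8 members would still be within 1.5 times 6. Counting members by the main rule or within 500 bp of a 5' end gave the same genes at every alternative. These counts are not separate results, so 46 of 58 is no measure of robustness. The 6 members with a summit remained 6 in every list and at 2000 bp, where 13.9% of all protein-coding genes had one. They were 5 with a window of 250 bp (without lin-54), beside 7.08% of all genes, with each summit given to the nearest gene start (without lin-54), beside 7.82%, and with summits at or above the median signal (without lin-52), beside 6.16%. The median rank of the members' summits, 6.45% from the top by signal, was 35.2% by score and 22.5% by q-value, where 1744 and 1117 of 2482 peaks tie at the best value. Shared summits were 3 at 500 bp in place of 5. E2F-type letters were in 1 window in place of 4 within 50 bp of the summit. Of the other lists, the synMuv B and NuRD count of 6 of 13 was 3 in replicate 1, 2 in replicate 2 and 3 at 500 bp. The RB and E2F count of 2 of 11 was 2 in replicate 1, 1 in replicate 2 and 0 at 500 bp. The germline count of 2 of 7 was 1 in either replicate and 1 at 500 bp. Of all protein-coding genes 10.6% had a summit as reported, 6.99% in replicate 1, 8.04% in replicate 2 and 6.42% at 500 bp. The RB and E2F share of 18.2% thus lay above that of all genes, and its share at 500 bp below. The smaller windows hold fewer summits by construction; the cause of the other differences was not tested. No paired analysis was possible because the 2 replicates form 1 group. Read depth, which is not known here, limits what a weak or absent peak at dpl-1 and lin-37 can show.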
